A study of Mus musculus with 36 samples.

Results

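Fabp1, Fabp4 and Fabp5 encode fatty acid-binding proteins, small cytoplasmic carriers that hold a fatty acid or a related lipid inside a barrel of beta strands. They were taken by name, with 1 probe set per gene, as 3 of the 19938 mouse genes that had a named probe set on the arrays. The 36 Affymetrix whole-transcript arrays carry RNA of sorted cells from C57BL/6 mice, in 9 groups of 4 samples. The study asked what different precursors become in the air spaces of the lung. Donor cells were wild type and carried both CD45.1 and CD45.2. They were given through the nose to newborn Csf2rb-/- mice, which lack the beta chain of the GM-CSF receptor.

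Descendants of the donor cells were sorted from lung lavage 6 weeks after transfer. The names BM-derived, FL-derived, YS-derived and, last, AM-derived give the donor population of each. The donors were sorted and profiled too. They were monocytes from the bone marrow of mice of 6 to 12 weeks, fetal liver monocytes of E15.5, yolk sac macrophages of E12.5, and alveolar macrophages washed from the lungs of mice of 6 to 12 weeks, called adult alveolar macrophages. Alveolar macrophages of wild-type mice of 6 weeks were the control and are called 6-week alveolar macrophages. The derived cells therefore combine a wild-type donor genotype with a host whose own cells lack Csf2rb, and no sample holds transferred cells from a wild-type host. How many animals stand behind each sample was not stated, so p-values measure the spread between samples that the labels call biological replicates.

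Fatty acids are poorly soluble in water, and the binding proteins carry them between membranes, lipid droplets, mitochondria, peroxisomes and the nucleus. FABP1 is best known from liver, where it is very abundant and binds several bulky ligands. FABP4 is the carrier of adipocytes and of macrophages, and FABP5 that of epidermis, also made by macrophages. Both can hand ligands to nuclear receptors of the PPAR family. Alveolar macrophages take up and break down surfactant, a lipid film that lines the air spaces, and need GM-CSF and the receptor PPARγ, encoded by Pparg, to do so. Fabp4 is a textbook target gene of PPARγ.

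Fabp1 had the widest range between donor cells and their descendants of all 3 genes. Its promoter is shown because no promoter of Fabp4 or Fabp5 was available. It is the RefSeq sequence of assembly GRCm38.p6 at chr6:71199629-71199928 on the plus strand, 250 bases before and 50 bases after the annotated start of transcription, written 5′ to 3′. Capitals mark a match to a direct repeat read on the minus strand, from position -67 to -55 relative to the start, and a TATA core from -30 to -25.
Fabp1 promoter: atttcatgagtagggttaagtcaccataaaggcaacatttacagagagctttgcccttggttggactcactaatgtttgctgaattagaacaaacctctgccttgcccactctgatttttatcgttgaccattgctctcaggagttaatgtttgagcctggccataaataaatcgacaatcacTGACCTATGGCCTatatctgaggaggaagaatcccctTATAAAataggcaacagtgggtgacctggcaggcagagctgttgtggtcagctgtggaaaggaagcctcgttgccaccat
The repeat resembles the direct repeat with 1 spacer base (DR1) that PPAR and RXR receptors bind as a pair. It was searched for on both strands as AGGNCANAGGTCA, a loosened form chosen after this sequence had been seen. Of 32851 promoter windows of the same length, 31 (0.094%) held it. Among 8 promoters of the binding protein family in the table, only that of Fabp1 did. Because the form was chosen after the Fabp1 sequence, that match was fixed in advance. The stricter form AGGTCANAGGTCA was in 13 windows (0.04%) and in 0 of those 8. The TATA core TATAAA was in 13.6% of windows on either strand, and GAGGAA, a core of ETS factors such as PU.1, was in 28.3%. The last of these lies at -45 to -40 in the Fabp1 promoter. These matches describe letters, and binding was not measured. The table held a promoter for 1 of the 3 genes.

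Values are log2 after RMA, a method that corrects background, forces arrays to a common distribution and sums up the probes of each gene. The median of the whole table, 4.62, serves as the level under which a probe set is treated as having only a bound. Probe sets differ in brightness for reasons of their sequence, so levels were compared between groups within a gene and not between genes. The exception is the percentile of Fabp1 among all probe sets of an array, which carries this limit. Array medians lay between 4.54 and 4.73. Each array correlated with the others of its group at a mean r of 0.963 to 0.982, and the closest match of 28 of 36 arrays lay in their own group. All 24 alveolar macrophage arrays were closest to another alveolar macrophage array. The labelled cell types carried their markers. All 10 genes of an alveolar macrophage list were above the table median in all 6 alveolar groups, with list means of 10.31 to 10.59, against 4.78 to 5.48 in the 3 precursor groups. The 6 monocyte genes with a probe set averaged 11.68 in bone marrow and 11.09 in fetal liver monocytes. The 9 tissue macrophage genes averaged 10.39 in yolk sac macrophages.

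One array stood apart in a way that touches Fabp1. FL-derived replicate 4 was closest to a YS-derived array, but FL-derived replicate 3 was likewise closest to another group, the adult alveolar macrophages. The alveolar marker genes of replicate 4 averaged 10.14, against 10.45, 10.54 and 10.42 in the other FL-derived arrays. The lowest YS-derived array was at 10.19. The mean r of FL-derived replicate 4 with its own group, 0.973, was inside the range of all arrays. Fabp1 and Fabp7 differences of FL-derived cells from the model fit below are given with and without that array where it moves them. Through the spread shared by all groups it also widens the Fabp1 intervals of comparisons without FL-derived cells.

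Fabp1 was high in every alveolar macrophage group and under the table median in every precursor array. It read 12.10, 12.33, 11.92 and 12.09 in BM-derived macrophages, against 3.28, 3.18, 3.33 and 3.11 in bone marrow monocytes. In FL-derived macrophages the arrays gave 12.27, 12.22, 12.17 and 10.30, against 2.95, 3.60, 3.20 and 3.27 in fetal liver monocytes. In YS-derived macrophages Fabp1 was 12.06, 12.20, 12.36 and 12.02, against 3.25, 3.03, 2.95 and 2.83 in yolk sac macrophages. No derived array came near any precursor array, and the single low derived value, 10.30, is that of FL-derived replicate 4. AM-derived macrophages had 12.21, 12.14, 12.15 and 12.19, against 12.06, 12.15, 12.15 and 12.20 in adult alveolar macrophages. The 6-week alveolar macrophages had 12.36, 12.09, 12.17 and 12.29. Apart from FL-derived replicate 4, all alveolar arrays lay between 11.92 and 12.36 and overlapped across groups. Within an array, Fabp1 stood at percentile 98.3 to 99.0 of all probe sets in 23 alveolar arrays, and at percentile 14.6 to 29.5 in the precursors.

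Fabp4 was also far higher in alveolar macrophages, but its level was more variable among them. It read 10.14, 9.61, 10.52 and 10.45 in BM-derived macrophages, against 4.72, 4.95, 4.82 and 5.72 in bone marrow monocytes. FL-derived macrophages had 9.05, 9.47, 9.52 and 10.16, against 4.33, 4.36, 4.70 and 4.66 in fetal liver monocytes. YS-derived macrophages had 10.74, 10.83, 10.59 and 10.56, against 5.69, 4.98, 5.76 and 5.29 in yolk sac macrophages. The 4 YS-derived arrays were above all BM- and FL-derived arrays, and the FL-derived arrays reached lowest. Fabp4 was 10.25, 10.40, 10.38 and 10.19 in AM-derived macrophages, against 10.34, 10.39, 10.33 and 10.58 in adult alveolar macrophages. The 6-week alveolar macrophages had 9.72, 10.26, 9.82 and 10.14. Its precursor values straddled the table median, with 34 of 36 arrays above it, so a low level of Fabp4 in monocytes and yolk sac macrophages was near the limit of what the arrays measure.

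Fabp5 differed from the other two in being well above the table median in all 36 arrays, precursors included. BM-derived macrophages had 10.92, 10.79, 11.19 and 11.12, against 9.22, 9.38, 9.20 and 9.26 in bone marrow monocytes. FL-derived macrophages had 11.20, 11.27, 11.14 and 10.98, against 9.92, 10.31, 10.01 and 9.89 in fetal liver monocytes. YS-derived macrophages had 11.35, 11.34, 11.24 and 11.30, against 8.95, 8.66, 8.75 and 8.88 in yolk sac macrophages. The 3 precursors formed separate bands, fetal liver on top and yolk sac at the bottom, while the derived arrays converged between 10.79 and 11.35. AM-derived macrophages had 11.19, 11.26, 11.21 and 11.07, against 11.24, 11.29, 11.15 and 11.28 in adult alveolar macrophages. The 6-week alveolar macrophages had 10.98, 11.10, 10.96 and 11.25.

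**Figure D1:**
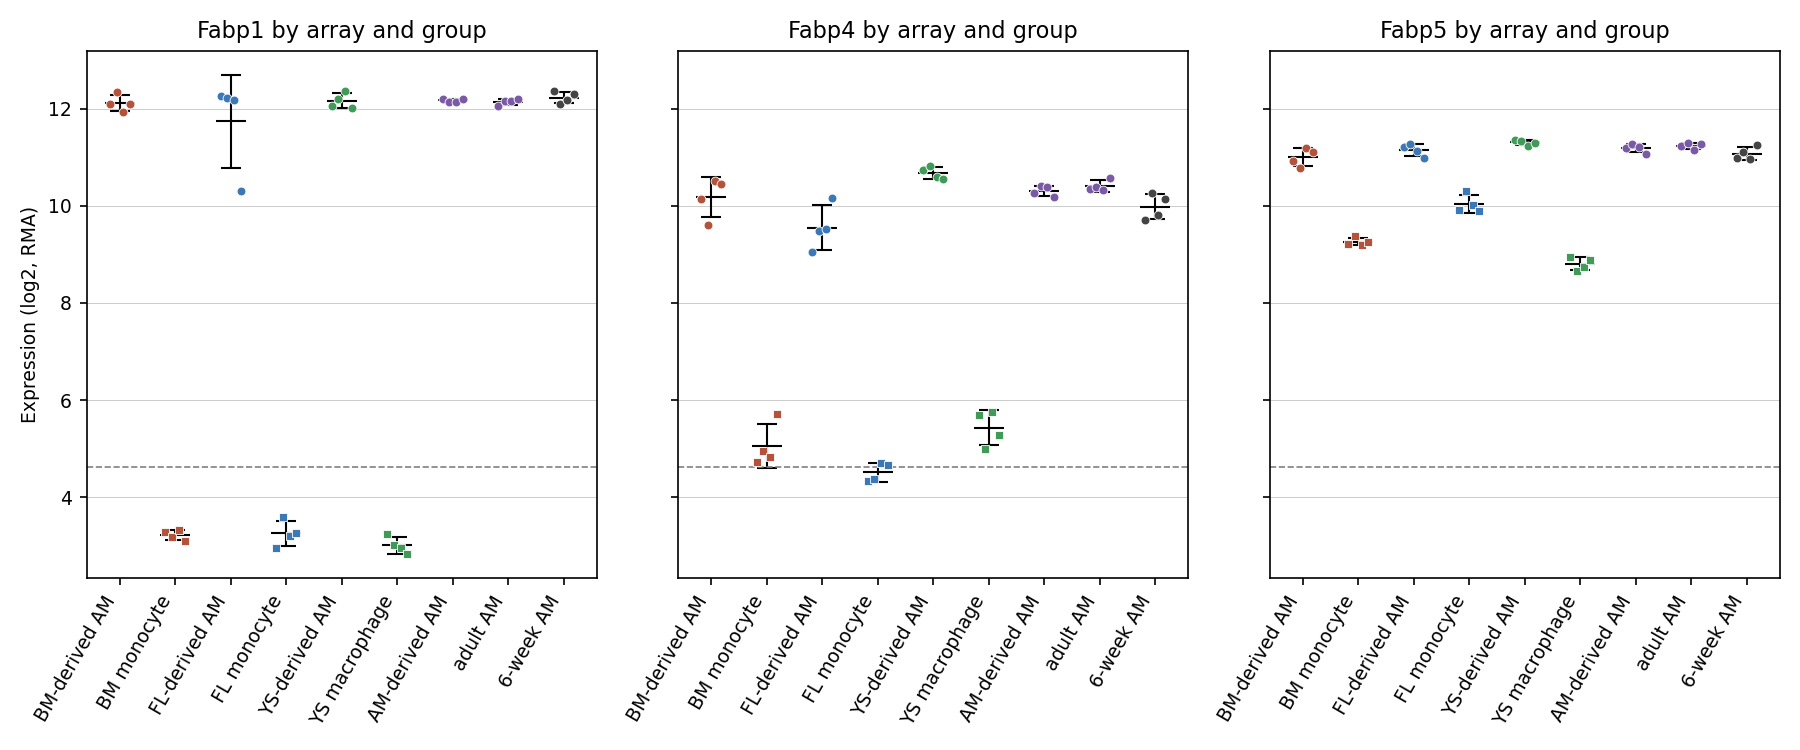
Log2 level of Fabp1, Fabp4 and Fabp5 (y axes, 1 panel per gene) in the 9 groups of 4 arrays (x axes; AM alveolar macrophage, BM bone marrow, FL fetal liver, YS yolk sac). Points are arrays, circles mark alveolar macrophage groups and squares precursor groups, bars are means and whiskers SD, and the dashed line is the table median of 4.62. Fabp1 lies near 12 in all alveolar groups and near 3 in all precursors, Fabp4 splits the same way with more scatter, and Fabp5 is high throughout.

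Over transfer, all 3 genes rose in all 3 precursors. A limma model with 1 mean per group gave each difference with its standard error (SE), with adjusted p over all 12244 genes tested and a call at an adjusted p under 0.05. Background rates were high: 36.4% of genes were called between BM-derived macrophages and bone marrow monocytes, 38.3% between FL-derived macrophages and fetal liver monocytes, and 42.9% between YS-derived and yolk sac macrophages. In those comparisons 20.3%, 20.4% and 19.6% of genes were called higher, so a call of a rise says little by itself and the sizes say more.

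Fabp1 averaged 12.11 ± 0.17 in BM-derived macrophages and 3.23 ± 0.10 in bone marrow monocytes (SD, n = 4 each), a log2 difference of 8.89 (SE 0.24, limma adjusted p = 2.26e-25). Taking the table median as the monocyte level, that is at least 180-fold higher. In FL-derived macrophages it averaged 11.74 ± 0.96, against 3.25 ± 0.26 in fetal liver monocytes, a log2 difference of 8.49 (limma adjusted p = 6.89e-25) or at least 139-fold. Without FL-derived replicate 4 that difference was 8.96. In YS-derived macrophages it averaged 12.16 ± 0.15, against 3.02 ± 0.18 in yolk sac macrophages, a log2 difference of 9.15 (limma adjusted p = 5.93e-26) or at least 186-fold. Ordered by fitted rise among 12244 genes, Fabp1 came first in the bone marrow and fetal liver comparisons and at rank 2 in the yolk sac one. That order used deposited values, including Fabp1 donor levels that are only bounded. No order was made with levels raised to the table median.

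Fabp4 rose by nearly the same amount from each origin. The log2 difference was 5.13 for BM-derived macrophages against bone marrow monocytes (SE 0.21, limma adjusted p = 3.63e-20), a 35.0-fold rise. It was 5.04 for FL-derived macrophages against fetal liver monocytes (limma adjusted p = 7.04e-20), at least 30.5-fold. For YS-derived against yolk sac macrophages it was 5.25 (limma adjusted p = 1.30e-20), or 38.1-fold. By size of rise Fabp4 came at ranks 35, 29 and 36. The 3 rises differed from each other by at most 0.21, with none of these differences called, and the 95% interval of the widest one ran from -0.39 to 0.82.

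Fabp5 rose least, and by an amount that differed between origins. It rose 3.34-fold in BM-derived macrophages against bone marrow monocytes (log2 difference 1.74, SE 0.10, limma adjusted p = 6.82e-16). The rise was 2.16-fold in FL-derived macrophages against fetal liver monocytes (log2 1.11, limma adjusted p = 5.50e-11). In YS-derived against yolk sac macrophages it was 5.65-fold (log2 2.50, limma adjusted p = 2.55e-20). The rise from yolk sac exceeded that from fetal liver by 1.39 (SE 0.14, limma adjusted p = 2.41e-09) and that from bone marrow by 0.76 (limma adjusted p = 0.000101). The rise from fetal liver was smaller than that from bone marrow, with a difference of -0.63 (limma adjusted p = 0.00354). Each of these values is a difference between derived groups minus the difference between their donors. They are thus not separate from the Fabp5 donor differences given below, and no Fabp5 difference between derived groups was called. In these tests of unequal change, 22.9%, 30.6% and 9.94% of all genes were called. Fabp1 gave no call in them, at 0.66, 0.26 and -0.40, and neither did Fabp4, at 0.21, 0.12 and -0.09. Without FL-derived replicate 4 the Fabp1 values that involve fetal liver were 0.18 and 0.08, so the first shrank and the last turned its sign. These Fabp1 values also contain donor levels under the table median.

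A second Fabp5 probe set was on the arrays, and a Fabp5 pseudogene is annotated in the mouse genome. Signal of near-identical copies may be shared, so Fabp5 values are less certain than the others. Outside this paragraph, Fabp5 values and main tests come from the set with the higher mean over all arrays (10.56, against 10.47 in the second). Where either set lies in the genome was not given, so the set used may read a copy rather than the Fabp5 gene. The second probe set averaged 10.92 in BM-derived macrophages and 9.06 in bone marrow monocytes. It averaged 11.09 in FL-derived macrophages and 9.91 in fetal liver monocytes, and 11.26 in YS-derived against 8.67 in yolk sac macrophages. Both probe sets thus gave the same order of groups here, with r = 0.999 over 36 arrays and a largest gap of 0.35 on any array.

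AM-derived macrophages, which were already alveolar macrophages before transfer, showed no called change in any of the 3 genes. The log2 differences from adult alveolar macrophages were 0.03 for Fabp1 (95% interval -0.45 to 0.51), -0.10 for Fabp4 (-0.53 to 0.32) and -0.05 for Fabp5 (-0.26 to 0.16). In that comparison 0.702% of genes were called. The Fabp1 intervals are wide partly because the fit shares 1 spread per gene over all groups. That spread includes FL-derived replicate 4. For FL-derived minus 6-week cells the Fabp1 SE was 0.235 with that array and 0.123 without it. Intervals of comparisons without FL-derived cells are given only with it in the fit. Fits of only the groups compared changed no Fabp1 call.

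**Figure D2:**
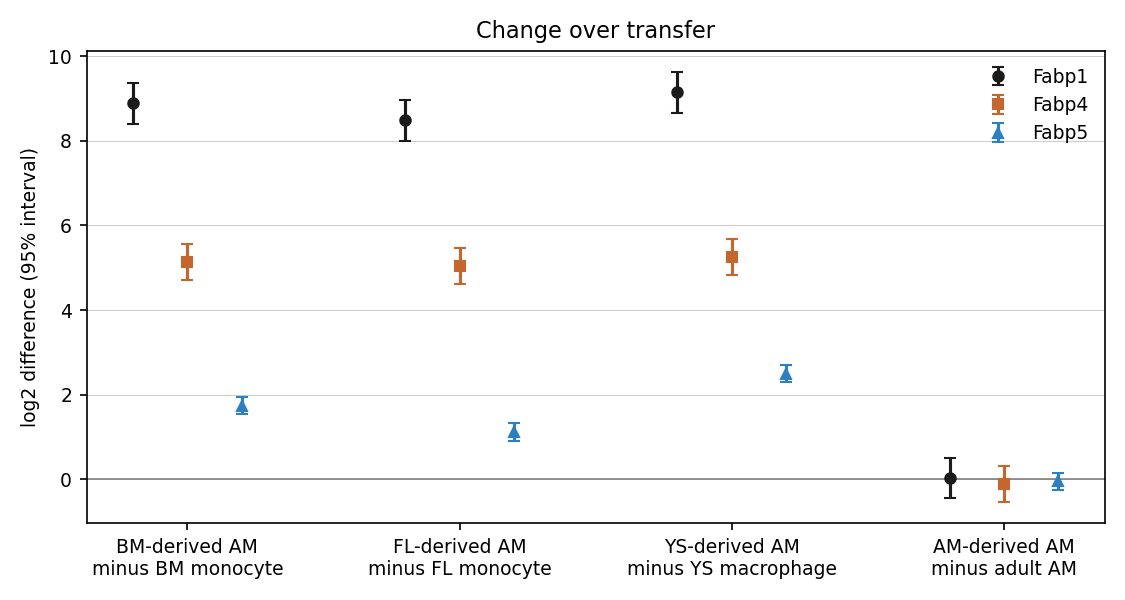
Log2 difference over transfer (y axis) of Fabp1, Fabp4 and Fabp5 for each origin (x axis), derived macrophages minus their donor cells. Points are limma estimates and lines are 95% intervals. Fabp1 lies between 8.49 and 9.15 and Fabp4 between 5.04 and 5.25 for the 3 precursors, Fabp5 spreads from 1.11 to 2.50, and the differences of AM-derived from adult alveolar macrophages lie between -0.10 and 0.03.

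The changes of the 3 genes were set against each other through the difference of their values within each array. Array values were raised to the table median where they lay under it, a setting added after seeing the data. From bone marrow, fetal liver and yolk sac, Fabp1 then changed more than Fabp4 by 2.36 (SE 0.37), 2.21 (SE 0.69) and 2.28 (SE 0.21). The bone marrow and yolk sac values are lower bounds. The fetal liver value is not, because Fabp4 was also raised in fetal liver monocyte arrays (from 4.33 and 4.36). In the same setting the change of Fabp4 exceeded that of Fabp5 by 3.39 (SE 0.26), at least 3.79 (SE 0.30) and 2.75 (SE 0.16) in the same order. In an exact two-sided permutation test over the 8 arrays of each comparison, each of these gave p = 0.0286, the smallest p that 4 against 4 allow. Adjusted over the 27 tests of this kind it was 0.0701, so none of them passed 0.05 after adjustment. With so coarse a smallest p, most of the 27 tests would have had to reach it for any to pass. Missing 0.05 here therefore says little about these gaps. On the values as deposited the excess of Fabp1 over Fabp4 was 3.76, 3.45 and 3.89, with the same p, but it contains levels that are only bounded. Between YS-derived and 6-week alveolar macrophages the difference in Fabp4 exceeded that in Fabp5 by 0.46 (SE 0.10) and that in Fabp1 by 0.76 (SE 0.20), again with the smallest exact permutation p of 0.0286 (adjusted 0.0701).

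The donor populations differed from each other in Fabp5 before transfer. Fetal liver monocytes averaged 10.03 ± 0.19 and bone marrow monocytes 9.26 ± 0.08 (SD, n = 4 each), a log2 difference of 0.77 (limma adjusted p = 8.29e-07). Yolk sac macrophages averaged 8.81 ± 0.13, lower than bone marrow monocytes by a log2 difference of -0.46 (limma adjusted p = 0.000446) and lower than fetal liver monocytes by -1.22 (limma adjusted p = 6.61e-12). The groups did not overlap in any of these. Among all genes, 19.5% were called between fetal liver and bone marrow monocytes, 42.2% between yolk sac macrophages and bone marrow monocytes, and 33.1% between yolk sac macrophages and fetal liver monocytes. Markers of other blood cells moved with these groups: the mean of 9 neutrophil genes was 3.99 in yolk sac macrophages, 7.47 in fetal liver and 7.23 in bone marrow monocytes, and that of 6 erythroid genes was 6.69, 4.18 and 4.13 in the same order. Their part in the Fabp5 order was not tested. Fabp5 thus had a definite order of donors, which the derived macrophages did not keep: YS-derived cells, from the lowest donor, had the highest mean.

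Fabp4 gave a single call among donors. Yolk sac macrophages averaged 5.43 ± 0.36 and fetal liver monocytes 4.51 ± 0.19 (SD, n = 4 each), a log2 difference of 0.92 (limma adjusted p = 0.000734). Bone marrow monocytes averaged 5.05 ± 0.46. Fetal liver monocytes differed from them by -0.54 (limma adjusted p = 0.0687), without overlap, and yolk sac macrophages by 0.38 (limma adjusted p = 0.151), with overlap. Both of these missed the threshold, and both passed it without 1 bone marrow array. The adjusted p was 0.0419 for fetal liver without bone marrow replicate 1 and 0.0194 for yolk sac without replicate 4, which had the top bone marrow value of 5.72. Fabp1 was under the table median in all 12 donor arrays, so no order of those levels was measured.

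Among the alveolar groups, Fabp1 and Fabp5 gave no called difference in any comparison made. The comparisons with 6-week alveolar macrophages share those 4 control arrays, so they are set side by side. Fabp1 differed from that control by -0.11 in BM-derived, -0.49 in FL-derived, -0.07 in YS-derived, -0.06 in AM-derived and -0.09 in adult alveolar macrophages. The FL-derived value had an unadjusted limma p of 0.0462 and an adjusted p of 0.702, and was -0.01 without FL-derived replicate 4. Fabp5 differed by -0.07, 0.07, 0.23, 0.11 and 0.16 in the same order of groups, with the lowest limma adjusted p, 0.476, in YS-derived cells. Of all genes, 1.31%, 1.05%, 1.72%, 1.07% and 0.0163% were called in these 5 comparisons. The 95% intervals of the 5 Fabp5 differences all lay between -0.28 and 0.44.

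Fabp4 ordered the alveolar groups more widely. From the highest mean down, YS-derived macrophages had 10.68 ± 0.12, adult alveolar macrophages 10.41 ± 0.12, AM-derived 10.31 ± 0.10, BM-derived 10.18 ± 0.41, 6-week alveolar macrophages 9.99 ± 0.26 and FL-derived 9.55 ± 0.46 (SD, n = 4 each). No neighbours in that order differed by a called amount. Against 6-week alveolar macrophages the log2 difference was 0.20 in BM-derived, -0.43 in FL-derived, 0.69 in YS-derived, 0.32 in AM-derived and 0.43 in adult alveolar macrophages. None was called. The YS-derived arrays did not overlap with the controls (limma adjusted p = 0.1003) and neither did the adult ones (limma adjusted p = 0.999). How many of all genes were without overlap was not counted in any comparison, so a lack of overlap only describes the arrays.

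In Fabp4, 2 differences between derived cells and other alveolar groups were called. YS-derived macrophages exceeded FL-derived ones by 1.13 (SE 0.21, limma adjusted p = 0.00495), a 2.18-fold difference without overlap, in a comparison that called 0.27% of all genes. FL-derived macrophages were lower than adult alveolar macrophages by a log2 difference of -0.86 (limma adjusted p = 0.0311), where 1.05% of genes were called. Both calls were lost when the spread was estimated from only the 2 groups compared (adjusted p 0.127 and 0.185). The first was lost without FL-derived replicate 1 (adjusted p 0.0503) and the second in 7 of the 8 fits that left out 1 of its arrays.

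The other comparisons among derived groups gave no call for the 3 genes. In Fabp4, FL-derived differed from BM-derived macrophages by -0.63 (limma adjusted p = 0.404) and YS-derived from BM-derived by 0.50 (limma adjusted p = 0.550). Background rates there were 0.417% and 0.833%. Against AM-derived macrophages the Fabp4 differences were -0.13, -0.75 and 0.37 in BM-, FL- and YS-derived cells, where 0.425%, 0.335% and 0.588% of genes were called. The FL-derived value reached an adjusted p of 0.0324 in limma without FL-derived replicate 4. Against adult alveolar macrophages BM-derived cells differed by -0.23 and YS-derived cells by 0.27 in Fabp4, with 1.23% and 2.03% of genes called. The largest Fabp5 difference among derived groups was 0.30, YS-derived over BM-derived, without overlap of arrays (limma adjusted p = 0.296).

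**Figure D3:**
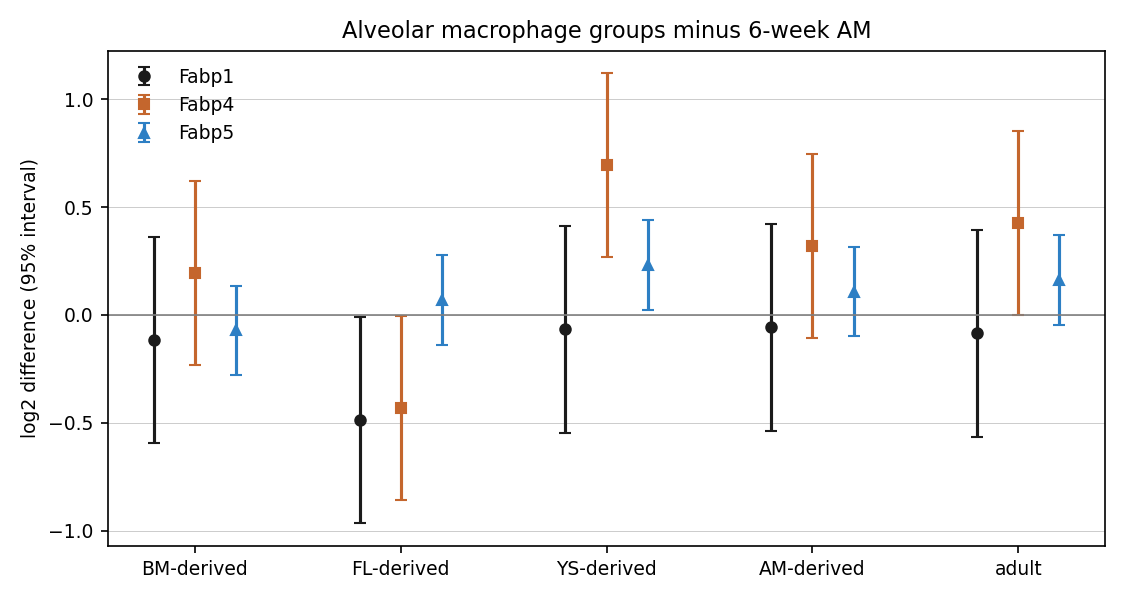
Log2 difference from 6-week alveolar macrophages (y axis) of Fabp1, Fabp4 and Fabp5 in BM-, FL-, YS- and AM-derived and adult alveolar macrophages (x axis). Points are limma estimates and lines 95% intervals. Fabp4 ranges from -0.43 in FL-derived to 0.69 in YS-derived cells, while Fabp5 stays between -0.07 and 0.23.

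Cells known for these carriers could ride along in a sort, and their markers were read beside the results. In bulk samples fewer cells of a type and less RNA per cell cannot be told apart. Of 10 hepatocyte and yolk sac endoderm genes, 9 had a probe set. Their mean was 4.14 to 4.31 in the alveolar groups, where Fabp1 is high. It was 5.12 in yolk sac macrophages (arrays 4.73 to 5.43, 5 genes above the table median), where Fabp1 was at 3.02, and 4.25 to 4.32 in the monocytes. Afp, the fetal albumin-like serum protein, stood at 6.93 in yolk sac macrophages, while albumin itself (Alb) was at 3.60 there. Endothelial markers averaged 4.16 to 4.26 in the alveolar groups and 4.18 to 4.34 in the precursors, all under the table median.

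Adipocyte markers averaged 5.26 to 5.37 in the alveolar groups and 3.97 to 4.21 in the precursors, so this list moved with Fabp4. Only 2 of its 5 measured genes were above the table median in alveolar groups, Cidec and Plin1, which coat or enlarge lipid droplets. Adiponectin (Adipoq) was at 3.36 to 3.58 and leptin (Lep) at 3.05 to 3.28 in all 9 groups, under the table median throughout. Lung epithelial markers averaged 5.24 to 5.50 in the alveolar groups, with 8 to 10 of 11 above the table median, against 4.60 to 4.96 in the precursors, with 6 or 7. The surfactant protein gene Sftpc reached a group mean of 5.28 at most, and the club cell gene Scgb1a1 6.44. The part of this list in the rises of the 3 genes was not tested.

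Of the other intracellular lipid-binding proteins, 11 of 12 listed genes had a probe set and 2 passed the filter, Fabp7 and Crabp1. Fabp2 (intestine), Fabp3 (heart and muscle), Fabp6 (ileum, a bile acid carrier), Fabp9 (testis), Fabp12, Pmp2 (peripheral myelin) and Rbp7 were above the table median in 0 of 36 arrays. Crabp2 was above it in 2 arrays and Rbp2 in 1. Crabp1, a carrier of retinoic acid, had group means of 4.48 to 4.92 and was not called over transfer. In RefSeq, Fabp4 and Fabp5 lie on mouse chromosome 3, as do Fabp9, Fabp12 and Pmp2, which stayed dark, while Fabp1 is on chromosome 6 and Fabp7 on chromosome 10.

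Fabp7, the carrier of brain and radial glia, behaved unlike the 3 genes above. It read 4.55, 3.94, 4.75 and 3.80 in BM-derived macrophages, against 5.76, 5.79, 7.29 and 6.85 in bone marrow monocytes. FL-derived macrophages had 5.08, 5.61, 5.44 and 8.19, against 3.89, 3.96, 4.30 and 4.03 in fetal liver monocytes. YS-derived macrophages had 7.89, 5.22, 6.90 and 6.63, against 3.79, 4.16, 4.03 and 3.93 in yolk sac macrophages. It was thus lower after transfer from bone marrow and higher after transfer from fetal liver and yolk sac. AM-derived macrophages had 5.27, 3.77, 3.87 and 3.82, against 3.60, 4.72, 3.85 and 4.29 in adult alveolar macrophages. The 6-week alveolar macrophages had 3.95, 3.87, 4.01 and 3.84, all under the table median.

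The Fabp7 log2 difference over transfer was -2.16 from bone marrow (SE 0.48, limma adjusted p = 0.000468), 2.03 from fetal liver (limma adjusted p = 0.000829) and 2.68 from yolk sac (limma adjusted p = 2.17e-05). The value from fetal liver was 1.33 without FL-derived replicate 4 (limma adjusted p = 0.00989). The changes from fetal liver and yolk sac differed from that of bone marrow by 4.20 and 4.84 (limma adjusted p = 5.92e-05 and 8.17e-07). Fetal liver, yolk sac and BM-derived means lay under the table median, and with group means raised to it these were at least 3.25 and 3.83. On the values as deposited, the fetal liver difference of 4.20 was 3.49 without FL-derived replicate 4 (limma adjusted p = 5.70e-05). Against 6-week alveolar macrophages Fabp7 was 2.16 higher in FL-derived cells (limma adjusted p = 0.0119), at least 2.75-fold, and 2.74 higher in YS-derived cells (limma adjusted p = 0.000396), at least 4.10-fold. The BM-derived difference was 0.34 and the AM-derived one 0.26, neither called. The FL-derived call rests on FL-derived replicate 4, the array with low Fabp1. Without it the difference was 1.46 with an adjusted p of 0.0952 in limma, although all 3 other arrays stayed above the 6-week ones. YS-derived macrophages also exceeded BM-derived ones by 2.40 (limma adjusted p = 0.00431). With the spread taken from only the 2 groups compared, this call and that of FL-derived against 6-week cells were lost (adjusted p 0.0506 and 0.168), while that of YS-derived against 6-week cells was kept.

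**Figure D4:**
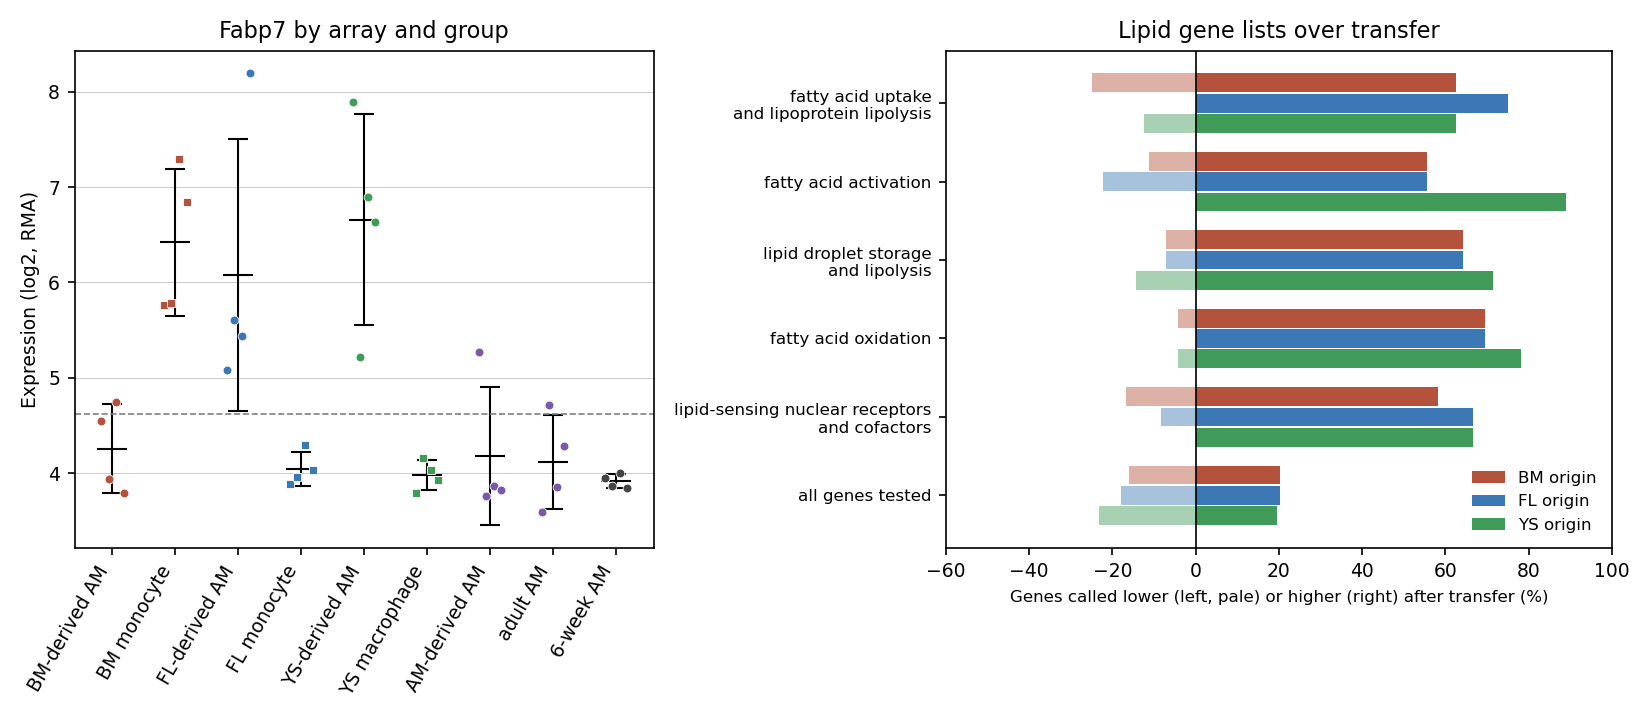
The panel for Fabp7 plots its log2 level in each array of the 9 groups, with means, SD and the table median as a dashed line. The other panel gives, for 5 lists of lipid genes and for all genes tested, the percentage of tested genes called higher (right) and lower (left, pale) over transfer from each origin. Fabp7 is high in YS- and FL-derived macrophages and in bone marrow monocytes, and calls of a rise outnumber calls of a fall in the 5 lists plotted.

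Other genes of lipid handling rose more often than they fell, in all 5 lists read beside the carriers. Of their 66 genes tested, 42 rose and 7 fell from bone marrow, where 20.3% of all genes rose and 16.1% fell. From fetal liver 44 rose and 4 fell, against 20.4% and 18% of all genes, and from yolk sac 49 rose and 4 fell, against 19.6% and 23.2%. A gene whose donor mean lay under the table median is given as a lower bound, as a fold against that median. The adipocyte and lung epithelial markers given above moved with these lists too, and their part in them was not tested. Cidec and Plin1, the adipocyte markers above the table median in alveolar groups, also belong to the lipid droplet list. The adipocyte markers and that list are therefore not independent. Over all genes tested the median change was -0.02 from bone marrow, -0.02 from fetal liver and 0.00 from yolk sac. Of 14 genes of uptake and lipoprotein breakdown 8 were tested. From bone marrow, 5 rose and 2 fell, from fetal liver 6 rose and 0 fell, and from yolk sac 5 rose and 1 fell, with list medians of 2.11, 2.31 and 1.54. Cd36, a fatty acid and scavenger receptor, rose at least 56.8-fold from bone marrow and at least 69.6-fold from fetal liver, where donor means lay under the table median, and 2.66-fold from yolk sac, whose macrophages already had a mean of 9.40. Lpl, the lipase that frees fatty acids from lipoproteins, rose by 4.51, 4.84 and 2.67 on the log2 scale from bone marrow, fetal liver and yolk sac. Lipa, the acid lipase of lysosomes, rose by 2.21, 2.76 and 2.36, and Angptl4, a secreted inhibitor of lipoprotein lipase, by 3.34, 2.62 and 2.19.

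Genes of storage and release in lipid droplets moved the same way in 9, 9 and 10 of 14 tested, with 1, 1 and 2 lower and list medians of 1.00, 0.90 and 1.27. Mgll, which splits monoacylglycerol, rose at least 20.3-fold, 24.1-fold and 21.1-fold from bone marrow, fetal liver and yolk sac. Cidec, a protein of large lipid droplets, rose at least 43.3-fold from bone marrow, 29.3-fold from fetal liver and at least 32.0-fold from yolk sac. Plin2, the common droplet coat protein, rose by 2.12, 1.81 and 0.97 on the log2 scale. Abhd5, the activator of the lipase that starts triglyceride breakdown, rose by 1.33, 1.83 and 2.97.

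Of 12 genes of fatty acid activation 9 were tested, of which 5, 5 and 8 rose and 1, 2 and 0 fell. Their medians were 0.26, 0.26 and 0.65. Acot1 and Acot2 are thioesterases that release fatty acids from CoA. Acot1 rose at least 2.37-fold, 2.05-fold and 2.42-fold, and Acot2 by 1.24, 1.07 and 1.02 on the log2 scale. Dbi, the carrier of acyl-CoA, rose by 0.26, 0.26 and 0.76. Acot9, a mitochondrial thioesterase, was not called from bone marrow (-0.26, limma adjusted p = 0.255), lower from fetal liver (-0.54) and higher from yolk sac (1.47). Its change from yolk sac exceeded that from bone marrow by 1.72 (limma adjusted p = 9.31e-07).

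Of 26 genes of fatty acid oxidation 23 were tested, of which 16, 16 and 18 rose and 1, 0 and 1 fell, with medians of 0.87, 0.74 and 0.60. Acaa1b, a peroxisomal thiolase, rose at least 5.82-fold from bone marrow, 6.24-fold from fetal liver and 5.78-fold from yolk sac. Pdk4, the kinase that turns cells from glucose to fatty acid use, rose at least 5.27-fold, 3.61-fold and 8.59-fold. On the log2 scale Hadhb of the mitochondrial trifunctional protein rose by 1.16, 0.74 and 1.03, and Cpt2, which completes the import of acyl groups into mitochondria, by 1.61, 0.97 and 0.87.

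Of 18 genes of lipid-sensing nuclear receptors and their partners 12 were tested, of which 7, 8 and 8 rose and 2, 1 and 0 fell, with medians of 0.71, 0.91 and 0.83. With group means raised to the table median these medians were 0.64, 0.83 and 0.83, and those of the other 4 lists moved by less than 0.01. Pparg rose by 4.73 from bone marrow, 2.49 from fetal liver and 3.42 from yolk sac. Nr1h3, which encodes the oxysterol receptor LXRα, rose by 2.84, 2.51 and 2.27. Rxra, the shared partner of both receptors, rose by 1.88, 2.55 and 0.73. Rara, a retinoic acid receptor, was not called from bone marrow (0.23, limma adjusted p = 0.241) and rose by 0.83 and 1.84 from fetal liver and yolk sac.

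Of the same 66 genes, 2 were called higher and 1 lower in BM-derived than in 6-week alveolar macrophages, where 0.825% and 0.482% of all genes were. In FL-derived cells 2 were higher and 0 lower (all genes 0.604% and 0.441%), in YS-derived cells 4 and 1 (1.02% and 0.702%) and in AM-derived cells 2 and 0 (0.76% and 0.31%). Slc27a1 and Msr1, both of the uptake list, made up both rises in BM- and FL-derived cells. Slc27a1, a fatty acid transport protein of the plasma membrane, averaged 7.40 in BM-derived, 7.41 in FL-derived and 7.67 in YS-derived macrophages, against 5.81 in 6-week cells. Those differences were 1.59, 1.60 and 1.86 (limma adjusted p = 2.42e-06, 4.59e-06 and 7.65e-08), and they share the 4 control arrays. AM-derived macrophages stood at 6.00 and adult alveolar macrophages at 6.13. Against AM-derived cells, which passed through the same host, Slc27a1 was higher by 1.40, 1.41 and 1.67 in BM-, FL- and YS-derived cells. Msr1, a scavenger receptor of modified lipoproteins, averaged 8.76 in BM-derived, 8.35 in FL-derived, 8.71 in YS-derived and 8.06 in AM-derived macrophages, against 6.84 in 6-week cells. Those differences were 1.92, 1.51, 1.87 and 1.22 (limma adjusted p = 3.50e-09, 7.88e-07, 3.43e-09 and 1.99e-05). Msr1 was thus higher in all 4 transferred groups, and Slc27a1 was called in the 3 that began as precursors.

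Pdk4 was higher than in 6-week cells by 1.77 in YS-derived macrophages (limma adjusted p = 0.000544) and by 1.70 in AM-derived macrophages (limma adjusted p = 0.0023). In YS-derived cells Plin1, a droplet coat protein, was higher by 0.48 (limma adjusted p = 0.0174) and Cidec lower by -1.11 (limma adjusted p = 0.00792). In BM-derived cells G0s2, an inhibitor of triglyceride lipase, was lower by -0.99 (limma adjusted p = 0.0466).

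The genes most like each carrier were found by Pearson's r over the 9 group means among the genes tested, as a description. For Fabp1 they were Krt19 (a keratin), Itgax (the integrin CD11c), Cd9, Cd2 and Kcnn3 (a potassium channel), with r of 0.999 in each. For Fabp4 they were Prdx1 (a peroxidase), Comtd1, Meis3, Gabarapl1 and Cav2, with r of 0.998 to 0.994. For Fabp5 they were Syne2, Plscr1, Olr1 (a receptor of oxidised lipoprotein), Plcb2 and F11r, with r of 0.994 to 0.988. Such values mostly restate the gap between alveolar and precursor groups, which the 9 points share.

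Within the 24 alveolar arrays the picture differed. Fabp1 was most like Fam107b (r = 0.836), Sh2d1b1, Cd2, Stmn1 and Ndc80. Without FL-derived replicate 4 these r were between 0.127 and 0.312, so the likeness to these genes by Pearson's r rests on 1 array. Fabp4 was most like Cmbl (r = 0.726, and 0.749 without that array), Rhoc, Pon3, Lgals1 and Mtx2. Fabp5 was most like Coprs (r = 0.741), Dus2, Mif4gd, Clec4d and Rhoc. Rhoc is in both lists, and Fabp4 and Fabp5 correlated with each other at r = 0.47 over the 24 arrays. Fabp1 correlated with Fabp4 at -0.11 and with Fabp5 at 0.19 there, and at -0.45 and -0.27 without FL-derived replicate 4. Over all 36 arrays these were 0.98 and 0.94.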

How the data were processed

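RNA of sorted cells was amplified and hybridised to the arrays, per the labels. The authors deposited log2 values for 35556 probe sets. RMA produced them, per the submitters' processing notes, and its version was not given. RMA removes shifts shared by most genes and compresses differences of dim genes.

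Probe sets were named from the platform annotation, which can be old: 21789 had 1 symbol, 1621 several and 12146 no entry. By Entrez identifier 21698 matched RefSeq genes of GRCm38.p6. The probe set with the highest mean was kept for each gene (999 genes had several). Genes above the table median in at least 4 arrays were tested, 12244 in all, including all 3 carriers.

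Samples were grouped by title. limma 3.58.1 in R 4.3.3 fitted 1 mean per group to all 36 arrays, with two-sided tests, Benjamini-Hochberg adjustment within each comparison and 95% intervals. Unequal change was tested by exact permutation in SciPy 1.17.1. The scripts were tested on simulated data. Precision is limited by 4 arrays per group.

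Genes named are the 3 carriers, all measured relatives, up to 4 genes per lipid list with the lowest adjusted p over transfer (others, such as Slc27a1 and Msr1, by value), markers, and the 5 genes most like each carrier, without predicted genes. The genes and lists were chosen with earlier results of these data known.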

Additional observations from a re-analysis of the deposited data

Results flagged for a closer look

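Each of the 3 carriers and Fabp7 was tested in each of the 9 groups for a value far from its group, which made 36 tests of 4 arrays. In 3 of them 1 array stood apart by Dixon's criterion, and chance alone gives about 1 in 20 tests. The tests share arrays, so they are not independent. Fabp1 was 10.30 in FL-derived replicate 4, with the gap to the next array making up 0.953 of the range of the group. Fabp7 was 8.19 in the same array (0.831 of the range). Fabp7 was 5.27 in AM-derived replicate 1 (0.931 of the range), the only AM-derived array above the table median. In FL-derived replicate 4 the alveolar marker mean was 10.14 and Csf2rb was 9.63, against 9.64, 9.87 and 9.75 in the other FL-derived arrays. Fabp4 of that array was the highest of its group, at 10.16, and Fabp5 the lowest, at 10.98. What set this array apart was not tested.

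Changes over transfer that differed between origins, by the interaction term of the limma fit, were found for Fabp5 and Fabp7. For Fabp5 the change from fetal liver minus that from bone marrow was -0.63, that from yolk sac minus bone marrow 0.76 and yolk sac minus fetal liver 1.39. These Fabp5 values contain the differences between donors before transfer, and no Fabp5 difference between derived groups was called. For Fabp7 the change from fetal liver exceeded that from bone marrow by 4.20, or by 3.49 without FL-derived replicate 4. The change from yolk sac exceeded that from bone marrow by 4.84. Each of these was at an adjusted p under 0.05.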

How the results depend on the processing

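For the 3 carriers, 72 differences were tested again under the other settings, giving 1224 values. Of these, 1210 kept their side of the threshold, 10 lost their call and 4 gained one. In 0 of them did a difference called in either fit change direction. Sign changes of differences without a call were not counted. Fabp1 in FL-derived minus BM-derived macrophages, for example, ran from -0.55 to 0.11 over fits without 1 array. All changes of call were in Fabp4. When only the groups compared were fitted, which leaves fewer arrays to estimate the spread, YS-derived minus 6-week macrophages (0.69) gained a call (limma adjusted p = 0.0344), and YS-derived minus FL-derived (1.13) and FL-derived minus adult (-0.86) lost theirs. Leaving out 1 array gave -0.65 to -0.32 for fetal liver minus bone marrow monocytes, 0.26 to 0.60 for yolk sac macrophages minus bone marrow monocytes, -1.06 to -0.69 for FL-derived minus adult, -0.96 to -0.59 for FL-derived minus AM-derived and 0.96 to 1.33 for YS-derived minus FL-derived macrophages. With group means raised to the table median, the Fabp1 differences were 7.49, 7.12 and 7.54 over transfer from bone marrow, fetal liver and yolk sac, and 0 between yolk sac macrophages and either monocyte.

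Fitting only the groups compared also changed counts of genes called by over 1.5 times: to 45 from 86 for AM-derived minus adult, 74 from 128 for FL-derived minus 6-week, 0 from 2 for adult minus 6-week (499 genes at an unadjusted limma p under 0.05 in the fit of all arrays), 13 from 51 for FL-derived minus BM-derived, 63 from 102 for YS-derived minus BM-derived, 9 from 33 for YS-derived minus FL-derived, 32 from 52 and 15 from 41 for BM- and FL-derived minus AM-derived, and 68 from 151 and 64 from 128 for BM- and FL-derived minus adult macrophages. Without 1 array these were 1 to 5 for adult minus 6-week, 29 to 53 for BM-derived minus AM-derived, 86 to 157 for BM-derived minus adult and 84 to 115 for FL-derived minus adult. Fabp7 calls of FL-derived minus 6-week, and of YS-derived minus BM- or AM-derived macrophages, were also lost when only those groups were fitted.

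Replicate numbers were not taken to pair samples: of 16 same-numbered pairs of donor and derived arrays, 5 had a correlation of deviations over 0.1 (range -0.14 to 0.42). Of these 5, 3 were among the 4 pairs of AM-derived and adult arrays, whose remaining pair was at -0.01, so that in no comparison did every pair pass. A fit with the replicate block changed no call of the carriers. The Fabp4 difference between YS-derived and 6-week macrophages was 0.69 in it, with an adjusted p of 0.0735 in limma. By Spearman's rho, Cmbl and Rhoc stayed among the 5 genes most like Fabp4 in alveolar arrays, while Pon3, Lgals1 and Mtx2 did not. For Fabp1 none of the Pearson genes stayed, and Hmgb2 led with a rho of 0.762 (0.738 without FL-derived replicate 4). For Fabp5, Dus2, Mif4gd, Clec4d and Rhoc stayed and Coprs did not. Among the carriers rho was -0.38 for Fabp1 with Fabp4, -0.04 for Fabp1 with Fabp5 and 0.60 for Fabp4 with Fabp5. Depth has no counterpart here: probe sets under the table median have a bound only, which holds for Fabp1 in all donors. Raising values to the table median for the unequal changes, the lists and the Fabp7 differences between origins was chosen after seeing the data.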
